A study of Mus musculus with 19 samples.

Results

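Messenger RNA from the medial prefrontal cortex of wild-type (WT) mice was compared between animals given bacterial lipopolysaccharide (LPS) together with sedanolide and animals given saline alone. The comparison asked which transcripts still stood above or below the saline level when sedanolide had been given along with LPS. By the sample labels, the co-treated group held 5 libraries and the control group 4 (replicates 1, 2, 4 and 5), which made 9 of the 19 libraries of the series; a control replicate 3 was not analysed here. Co-treated mice received sedanolide at 20 mg/kg by gavage for 8 days, starting 3 days before LPS, and LPS at 1 mg/kg by intraperitoneal injection on 5 consecutive days. Control mice received saline by gavage for 8 days and by injection for 5 days. The other libraries, 5 from mice given the same LPS course with saline gavage and 5 from mice given sedanolide with saline injection, entered the shared model, and the LPS libraries are set beside the co-treated ones below. Strain, age and sex of the mice were not given in the sources used here, and the labels do not tell whether each library is another animal. All p-values therefore speak of variation among libraries, which may be technical.

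LPS is a component of the outer membrane of Gram-negative bacteria. It is passed by LPS-binding protein and CD14 to the Toll-like receptor TLR4, and the signal runs through NF-kB to the genes of cytokines, chemokines and acute-phase proteins. In brain, microglia, endothelial cells and astrocytes take part in the response to LPS given in the periphery. Complement C3 is cleaved to C3a, which is sensed by the receptor C3aR1 on microglia and other myeloid cells. Sedanolide is a phthalide found in celery seed oil.

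Library totals ran from 19.08 M to 24.32 M counts (M, mega), with 22.4 M ± 1.55 (SD, n = 4) in the control group and 22.81 M ± 0.82 (n = 5) in the co-treated group. Values per gene are CPM, counts per M counts of the library total after TMM scaling. Markers of the labelled tissue were present: the summed CPM of 15 cortical layer genes ran from 861 to 954 in control and from 868 to 949 in co-treated libraries. Control replicates 1 and 5 also held transcripts of the olfactory bulb. Cdhr1, a cadherin of bulb mitral and tufted cells, stood at 445, 5.01, 5.85 and 213 CPM in control replicates 1, 2, 4 and 5 and at 4.58, 2.29, 4.37, 4.60 and 7.41 CPM in the 5 co-treated libraries. The 5 co-treated libraries and control replicates 2 and 4 lay under 20 CPM of Cdhr1 and are called bulb-poor; of the LPS libraries, replicates 1 and 5 were bulb-poor. Counts of co-treated against control are therefore given also for the bulb-poor libraries of all groups, where control rests on 2 libraries. The mitochondrially encoded share of counts was 7.15% to 11.7% in control and 5.502% to 11.8% in co-treated libraries.

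Of 17757 genes tested, 1133 (6.38%) were called higher and 832 (4.69%) called lower in co-treated than in control libraries. Called means a Benjamini-Hochberg adjusted p below 0.05 over all genes tested in edgeR's quasi-likelihood test. A change over 2-fold was seen in 374 of the genes called higher and 237 of those called lower. The bulb-poor libraries called 615 genes (3.46%). Of these, 475 (2.68% of those tested) were higher and 140 (0.789%) lower, with 278 and 36 over 2-fold. Of the 1133 genes called higher with all libraries 430 were called higher there as well, which is 38.0% of the former and 90.5% of the latter. Of the 832 called lower 97 were, which is 11.7% and 69.3%. The fit without control replicate 1 called 924 genes in all, the fit without control replicate 5 called 876, against 1965 (11.1%) with all libraries; 1278, 1228 and 1230 were called without co-treated replicates 1, 3 and 4. LPS libraries differed from the same control libraries in 1938 genes (10.9%), 1504 called higher (8.47%) and 434 called lower (2.44%). The direct test of co-treated against LPS libraries called 350 genes (1.97%), 51 genes higher (0.287%) and 299 lower (1.68%) under co-treatment, and the bulb-poor libraries alone called 35 (0.197%), 14 (0.0789%) and 21 (0.118%). Counts of list members in the direct test are given below for all libraries only and were not made in bulb-poor libraries. Every co-treated library was bulb-poor, while LPS replicates 2, 3 and 4 were not. Where co-treated libraries are said not to overlap LPS libraries, the share of all genes so placed was not counted. The comparisons of LPS and of co-treated with control share the control libraries, so their values are placed side by side and their overlap is not read.

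**Figure D1:**
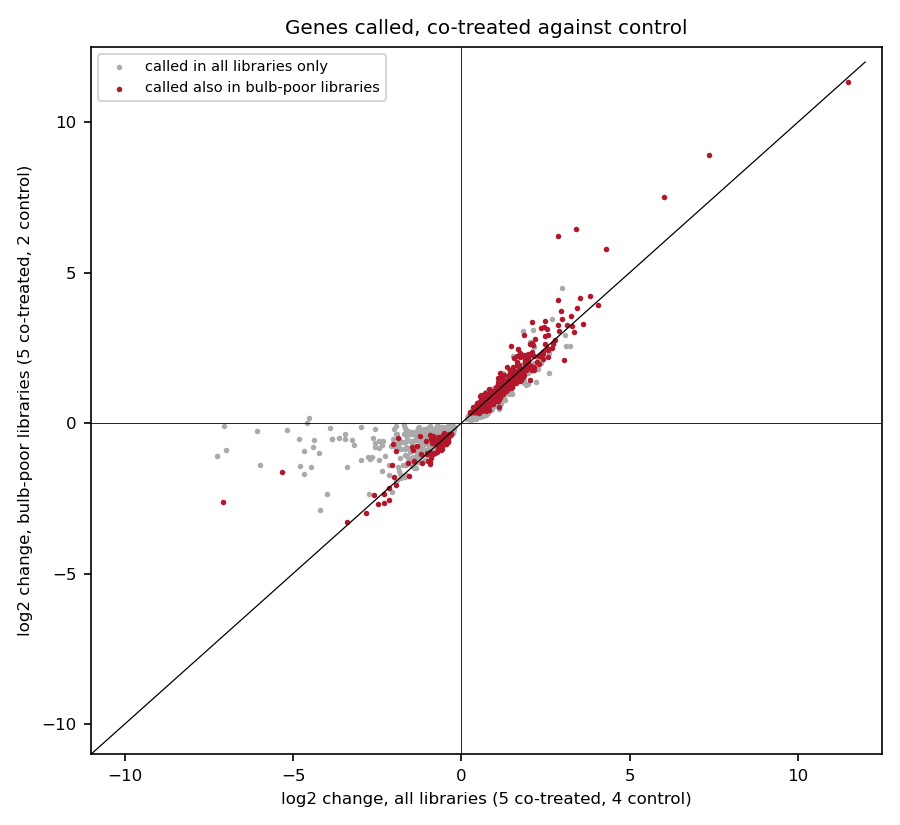
Log2 change of each gene called in co-treated against control libraries, with all libraries on the x axis and bulb-poor libraries alone (5 co-treated, 2 control) on the y axis, and a diagonal of equal change. Genes called higher lie along the diagonal, and 430 of 1133 are called on both axes; many of the 832 genes called lower, from -3 downward on the x axis in particular, lie closer to 0 on the y axis, and 97 are called on both.

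The promoters of 4 genes the results turn on are shown first: Saa3, Lcn2 and C3 were among the 15 genes with the largest rise, and C3ar1 encodes the receptor of the C3 fragment. Each runs 5′ to 3′ from 250 bases before to 50 bases after the RefSeq start site (build GRCm38.p6), all on the minus strand. Capitals mark matches, on either strand, to 4 short motifs bound by LPS-responsive factors.
Saa3, chr7:46715627-46715926: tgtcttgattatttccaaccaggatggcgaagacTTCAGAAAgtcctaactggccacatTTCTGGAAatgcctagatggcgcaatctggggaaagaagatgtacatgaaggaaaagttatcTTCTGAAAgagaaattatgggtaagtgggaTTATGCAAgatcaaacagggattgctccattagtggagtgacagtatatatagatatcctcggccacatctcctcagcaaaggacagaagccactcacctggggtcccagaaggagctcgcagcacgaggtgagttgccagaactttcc
Lcn2, chr2:32387690-32387989: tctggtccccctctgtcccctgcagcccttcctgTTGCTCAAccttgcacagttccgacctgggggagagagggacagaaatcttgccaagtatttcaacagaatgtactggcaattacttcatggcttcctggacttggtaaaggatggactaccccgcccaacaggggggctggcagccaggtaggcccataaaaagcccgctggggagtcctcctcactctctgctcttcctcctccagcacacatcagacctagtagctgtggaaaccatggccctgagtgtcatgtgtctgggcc
C3, chr17:57228087-57228386: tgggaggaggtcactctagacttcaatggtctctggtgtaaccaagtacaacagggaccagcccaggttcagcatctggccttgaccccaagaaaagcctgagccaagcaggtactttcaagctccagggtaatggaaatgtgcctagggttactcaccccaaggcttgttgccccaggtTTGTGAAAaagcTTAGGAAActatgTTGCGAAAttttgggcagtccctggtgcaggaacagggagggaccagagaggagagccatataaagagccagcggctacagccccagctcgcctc
C3ar1, chr6:122856108-122856407: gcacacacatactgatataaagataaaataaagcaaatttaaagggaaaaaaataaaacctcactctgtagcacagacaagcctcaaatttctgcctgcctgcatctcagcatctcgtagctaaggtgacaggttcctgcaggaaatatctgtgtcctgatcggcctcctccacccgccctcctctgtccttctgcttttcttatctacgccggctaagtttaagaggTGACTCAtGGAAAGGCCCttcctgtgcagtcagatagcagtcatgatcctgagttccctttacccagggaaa
The motifs searched were GGG followed by any 2 bases and TTTCC for NF-kB, TTNNGNAA for C/EBP, TGANTCA for AP-1 and TTCNNNGAA for STAT. Saa3 held 4 C/EBP matches, Lcn2 held 1 and C3 held 3, and these 3 windows held no match to the other motifs. C3ar1 held 1 AP-1 match and 1 NF-kB match and none to C/EBP or STAT. Among 32851 promoters of the same length 40.7% held a C/EBP match, 8.30% a STAT match, 7.81% an AP-1 match and 1.63% an NF-kB match, so the C/EBP letters are common. Of the 15 genes called higher with the largest change 11 had a promoter entry; 7 of these held a C/EBP match, 1 an AP-1 match, 1 an NF-kB match and none a STAT match. A match is a description of the letters and not a bound site.

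The 15 protein-coding genes with the largest rise, among those with a mean log2 CPM of at least 1 over all libraries, included several genes known from myeloid cells. Besides Saa3, Lcn2 and C3 they were Cd52, Adgre1, Rac2, Igsf6, Fyb, Depp1, Galnt15, Cd300c2, Mpeg1, Ifi30, Myo1f and Cd14. Each of the 15 lay without overlap between control and co-treated libraries and was called in all 19 fits that left out 1 library and in bulb-poor libraries. They were picked by their change in these same libraries, so this describes them and is no separate support. Of all genes tested 7.91% had all 5 co-treated above all 4 control libraries. Mpeg1, which encodes the pore-forming protein perforin-2 of macrophages, was at 38.2, 65.6, 42.0 and 46.0 CPM in control and 224, 200.1, 199, 226 and 156 CPM in co-treated libraries. In LPS libraries Mpeg1 was at 169.9, 119, 178, 146 and 222 CPM. It was the most abundant of the 15 and rose by 2.07 ± 0.18 on the log2 scale (adjusted p = 2.83e-07), with co-treated and LPS libraries overlapping. Rac2, a small GTPase of blood cells that takes part in oxidase assembly, rose by 2.42 ± 0.16, from 2.31 to 4.17 CPM in control to 15.1 to 18.5 CPM in co-treated libraries, and differed from LPS by -0.24 (-0.52 to 0.04). Myo1f, a myosin of immune cells, was at 14.1, 14.6, 14.7, 17.2 and 14.95 CPM in co-treated and 21.4, 21.4, 20.3, 18.9 and 22.99 CPM in LPS libraries. Its change from control was 2.01 ± 0.16 (adjusted p = 1.77e-07); the co-treated values lay below all LPS values, yet the difference of -0.48 was not called (adjusted p = 0.0853). Of the 15, the difference from LPS was called for Lcn2 and C3.

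Part of the genes that sense LPS and of the acute-phase genes were called higher under co-treatment than with saline. Of 17 LPS recognition genes tested, 9 were called higher and 1 lower (median log2 change 1.18, against 0.01 over all genes tested), and 8 were called higher and 0 lower in bulb-poor libraries. Cd14, the co-receptor that hands LPS to TLR4, was at 2.96, 4.22, 2.26 and 3.09 CPM in the 4 control libraries and at 12.9, 11.1, 12.8, 14.1 and 11.8 CPM in the 5 co-treated libraries. Every co-treated library lay above every control library, with a log2 change of 1.999 ± 0.14 (SE, adjusted p = 4.27e-08). This can be read against the background that 7.91% of genes tested had all 5 co-treated above all 4 control libraries. The other members called higher were Tlr1, Tlr2, Tlr6, Tlr7, Tlr13, Ticam2, Aoah and Cd180. Tlr2, the receptor of bacterial lipoproteins, rose by 1.94 ± 0.24 on the log2 scale (adjusted p = 2e-05), and Aoah, which encodes an enzyme that removes acyl chains from LPS, by 3.28 ± 0.33 (adjusted p = 1.99e-06). Tlr4 itself was at 2.52 ± 1.02 CPM (SD, n = 4) in control and 3.28 ± 0.890 CPM (n = 5) in co-treated libraries and was not called (log2 difference 0.37, 95% interval -0.19 to 0.94, adjusted p = 0.389).

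Lbp, which encodes LPS-binding protein, was the member called lower. It was at 2.03, 3.38, 1.62 and 2.13 CPM in control and 0.642, 0.704, 1.27, 0.708 and 1.16 CPM in co-treated libraries. In LPS libraries Lbp was at 3.995, 7.32, 4.32, 6.10 and 1.29 CPM. The co-treated libraries lay below all control libraries, and 4 of the 5 LPS libraries lay above all of them, with LPS replicate 5 below. The co-treated group differed from control by -1.35 ± 0.37 (adjusted p = 0.0269) and from LPS by -2.36 ± 0.35 (adjusted p = 0.00169). The call against control was lost on leaving out, in turn, co-treated replicates 1, 2 and 4, and control replicates 1, 2 and 5 (adjusted p = 0.0508 to 0.0644). In bulb-poor libraries the difference from control was -1.49 (adjusted p = 0.0542) and that from LPS -1.55 (adjusted p = 0.175).

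Of 17 acute-phase and IL-6/STAT3 genes tested, 5 were called higher and 0 lower (median 0.20), and the bulb-poor libraries gave the same counts. Saa3, a serum amyloid A gene expressed outside the liver, showed the largest change of the named genes. It was at 0.0739, 0, 0.0982 and 0 CPM in control, from 4 counts in all, and at 140.3, 168, 148, 123 and 118 CPM in co-treated libraries. The LPS libraries held 126, 113, 144, 106 and 206 CPM, and the co-treated values lay inside that range. The log2 change from control was 11.48 ± 0.37 (adjusted p = 2.59e-13), a value that rests on very few control counts, and the difference from LPS was 0.00 (95% interval -0.34 to 0.35, adjusted p = 0.991). Other Saa genes are related in sequence, so some reads may be shared.

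Lcn2, which encodes the iron-siderophore binding protein lipocalin-2, followed another course. It was at 0.369, 0.835, 0.835 and 0.668 CPM in control and 6.19, 8.58, 6.54, 6.37 and 6.34 CPM in co-treated libraries. In LPS libraries Lcn2 was at 12.9, 49.7, 23.9, 23.2 and 19.2 CPM. The 3 groups did not overlap: co-treated libraries lay above every control and below every LPS library. How many of all genes tested were placed so was not counted, here or for the genes below. The change from control was 3.34 ± 0.39 (adjusted p = 1.2e-05), and the difference from LPS was -1.92 ± 0.29 (adjusted p = 0.00199). Both calls held whichever of the 19 libraries was omitted and in bulb-poor libraries, where the difference from LPS was -1.22 (adjusted p = 0.0318). Serpina3n, a secreted protease inhibitor of reactive astrocytes, was at 33.8, 12.9, 9.53 and 21.5 CPM in control and 61.8, 72.4, 61.2, 64.9 and 52.9 CPM in co-treated libraries. In LPS libraries Serpina3n was at 108, 183, 136, 111 and 100.4 CPM. It rose by 1.68 ± 0.29 (adjusted p = 0.000974); in bulb-poor libraries the change was 2.47 (adjusted p = 3.58e-06). Its difference from LPS, -1.03 (adjusted p = 0.0490), was lost on leaving out, in turn, LPS replicates 1, 2, 3 and 4, and co-treated replicates 1, 2, 3, 4 and 5, and control replicate 5, and sedanolide replicates 1, 4 and 5 (adjusted p = 0.0554 to 0.174) and in bulb-poor libraries (-0.72, adjusted p = 0.0659). Il6ra, the interleukin-6 receptor, rose by 1.23 ± 0.14 (adjusted p = 6.83e-06), while Socs3, a feedback inhibitor of that pathway, at 3.55 ± 0.852 CPM in control and 5.11 ± 0.679 CPM in co-treated libraries, was not called (adjusted p = 0.0793).

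**Figure D2:**
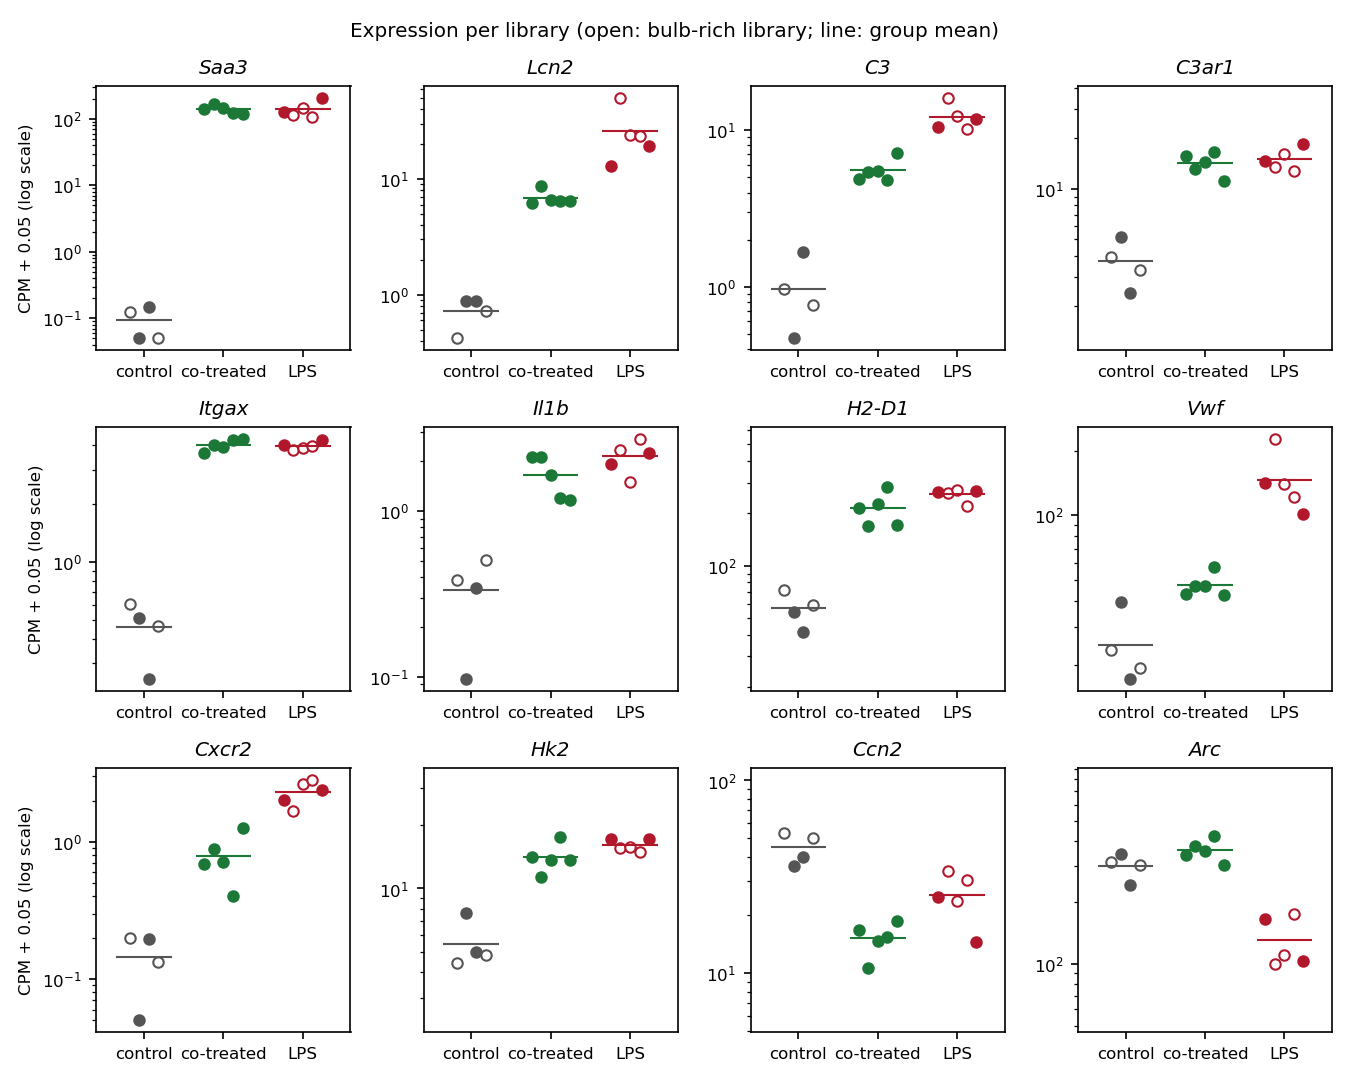
CPM + 0.05 on a log scale for 12 genes in every control, co-treated and LPS library, with the group mean of the plotted values as a line and bulb-rich libraries as open circles. Saa3, C3ar1, Itgax and Hk2 overlap between co-treated and LPS libraries and stand above control; Lcn2, C3 and Vwf lie between the control and LPS libraries; Ccn2 is lower than control; Arc overlaps control and stands above LPS.

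Part of the complement genes were called higher in the co-treated libraries than in control, with C1q and the C3a receptor at values that overlapped LPS and C3 itself at values between both groups. Of 21 complement genes tested 12 were called higher and 0 lower (median 0.77), with 9 and 0 in bulb-poor libraries. The summed CPM of all 25 listed ran from 261 to 415 in control, 711 to 844 in co-treated and 845 to 1087 in LPS libraries. C3, the component on which all complement pathways converge, was at 0.924, 0.417, 1.62 and 0.7099 CPM in control and 4.86, 5.37, 5.41, 4.73 and 7.07 CPM in co-treated libraries. In LPS libraries C3 was at 10.4, 16.02, 12.3, 10.2 and 11.7 CPM. No co-treated value overlapped either group. C3 rose by 2.58 ± 0.30 from control (adjusted p = 1.12e-05) and stood below LPS, with a log2 difference of -1.14 ± 0.24 (adjusted p = 0.0177). The latter call was lost on leaving out, in turn, LPS replicate 2, and co-treated replicates 1 and 3 (adjusted p = 0.0548 to 0.0609) and in bulb-poor libraries, where the difference was -0.99 (adjusted p = 0.195). The change from control held in all 19 such fits and in bulb-poor libraries (2.44, adjusted p = 0.00144).

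C3ar1, the C3a receptor, was at 3.88, 5.15, 2.36 and 3.22 CPM in control and 15.7, 13.2, 14.3, 16.5 and 11.03 CPM in co-treated libraries. All co-treated libraries lay above all control libraries, a log2 change of 1.95 ± 0.20 (adjusted p = 2.7e-06) that kept its call in bulb-poor libraries (1.90, adjusted p = 0.00105). Against the LPS libraries, at 14.6, 13.5, 16.1, 12.7 and 18.5 CPM, the difference was -0.09, with a 95% interval from -0.45 to 0.28 (adjusted p = 0.795). The series' title names the C3a/C3aR axis, and in these values the gene for the receptor and the gene for its precursor ligand stood at different places relative to LPS; whether the difference between them is larger than chance was not tested.

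C1qa, C1qb and C1qc, the chains of the classical pathway's recognition molecule, rose by 1.60 ± 0.13, 1.42 ± 0.12 and 1.56 ± 0.12 (adjusted p = 1.24e-07, 3.74e-07 and 1.18e-07). C1qa was at 59.0, 76.4, 47.4 and 61.7 CPM in control and 170.3, 172, 194, 215 and 172 CPM in co-treated libraries, with LPS libraries at 169 to 228 CPM. Itgax, the integrin alpha X chain of complement receptor 4, was at 0.554, 0.464, 0.196 and 0.418 CPM in control and 3.62, 3.96, 3.86, 4.20 and 4.27 CPM in co-treated libraries, with a change of 3.25 ± 0.23 (adjusted p = 3.77e-08) and a difference from LPS of 0.02 (-0.34 to 0.38). C4b, a classical pathway component of astrocytes, depended on the control libraries. It was at 45.2, 17.9, 11.004 and 22.6 CPM in control and 50.2, 47.3, 56.8, 58.6 and 65.9 CPM in co-treated libraries, without overlap, and the change of 1.20 ± 0.41 was not called (adjusted p = 0.0669). In bulb-poor libraries it was called, at 1.94 ± 0.24 (adjusted p = 0.000413).

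Most microglial genes tested were called higher in co-treated libraries than in control, and against LPS 0 of 18 homeostatic and 4 of 28 activated genes were called lower and none higher. Over all genes tested 1.68% were called lower than in LPS libraries. Of 18 homeostatic microglia genes 12 were called higher and 0 lower (median 0.84; bulb-poor 10 and 0), and of 28 activated microglia genes 20 were called higher and 0 lower (median 1.36; bulb-poor 20 and 0). In bulk tissue more cells of a type and more RNA per cell cannot be told apart. Adgre1, which encodes the macrophage surface protein F4/80, was at 9.09, 12.47, 7.71 and 9.56 CPM in control and 65.6, 65.2, 62.5, 73.5 and 51.1 CPM in co-treated libraries. It rose by 2.71 ± 0.15 (adjusted p = 1.79e-09) and differed from LPS by -0.03 (-0.30 to 0.23). Cd52, a small leukocyte surface glycoprotein, rose by 2.77 ± 0.25 (adjusted p = 5.06e-07), and ranged over 1.38 to 2.97 CPM in control and 10.3 to 19.6 CPM in co-treated libraries. Both genes lay without overlap between control and co-treated libraries.

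Among genes known as homeostatic markers, Csf1r, the receptor for microglial survival factors, was at 104, 162, 111 and 106 CPM in control and 289, 246, 292, 353 and 286 CPM in co-treated libraries (1.28 ± 0.14, adjusted p = 6.96e-06). Trem2, a lipid-sensing receptor, rose by 1.59 ± 0.15, Cx3cr1, the fractalkine receptor, by 0.98 ± 0.13, and Tmem119 by 0.87 ± 0.13 (adjusted p = 5.72e-07, 3.98e-05 and 0.000205). P2ry12, the purinergic receptor of resting microglial processes, did not pass: it was at 37.7, 68.4, 61.9 and 56.3 CPM in control and 79.998, 80.2, 78.0, 90.9 and 59.0 CPM in co-treated libraries (log2 difference 0.47, 0.07 to 0.86, adjusted p = 0.110). Aif1, which encodes the actin-binding protein IBA1, rose by 1.54 ± 0.27 (adjusted p = 0.00114).

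Ctsd, a lysosomal protease, was at 182, 204, 181 and 191 CPM in control and 401, 376, 432, 459 and 399 CPM in co-treated libraries (1.12 ± 0.08, adjusted p = 5.8e-08), with LPS libraries at 348 to 423 CPM. Cd68, a lysosomal membrane protein, rose by 1.52 ± 0.13 (adjusted p = 3.1e-07). Fcgr3, a receptor for immunoglobulin G, rose by 1.69 ± 0.13 (adjusted p = 1.24e-07); the Fcgr genes are close in sequence, so reads may be shared among them. Cybb, the catalytic subunit of the phagocyte NADPH oxidase, was at 2.48, 1.48, 0.835 and 1.503 CPM in control and 5.27, 7.17, 4.56, 6.10 and 3.58 CPM in co-treated libraries. In LPS libraries Cybb was at 7.52, 13.4, 16.6, 13.4 and 16.3 CPM. The 3 groups did not overlap, with a change from control of 1.74 ± 0.28 (adjusted p = 0.000481) and a difference from LPS of -1.33 ± 0.24 (adjusted p = 0.00682), which in bulb-poor libraries was -1.14 and not called (adjusted p = 0.170). Lyz2, a lysozyme of macrophages and neutrophils, stood at 17.7 ± 4.97 CPM in control, 70.1 ± 9.01 CPM in co-treated and 121 ± 29.8 CPM in LPS libraries. Its difference from LPS of -0.79 (adjusted p = 0.0392) was lost on leaving out, in turn, LPS replicates 2, 3 and 4, and co-treated replicates 1, 2, 3, 4 and 5, and control replicate 5, and sedanolide replicate 4 (adjusted p = 0.0515 to 0.142) and in bulb-poor libraries (-0.44, adjusted p = 0.507). Fcgr4, another immunoglobulin G receptor, was at 3.21, 2.55, 3.24, 3.10 and 3.40 CPM in co-treated libraries. In LPS libraries Fcgr4 was at 4.18, 8.31, 6.62, 5.09 and 4.98 CPM. The groups did not overlap, but the difference from LPS of -0.91 ± 0.23 (adjusted p = 0.0495) was lost on leaving out, in turn, LPS replicates 2, 3 and 4, and co-treated replicates 1, 2, 3, 4 and 5, and control replicates 2 and 5, and sedanolide replicates 1, 2 and 5 (adjusted p = 0.0513 to 0.186) and in bulb-poor libraries (-0.55, adjusted p = 0.373).

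**Figure D3:**
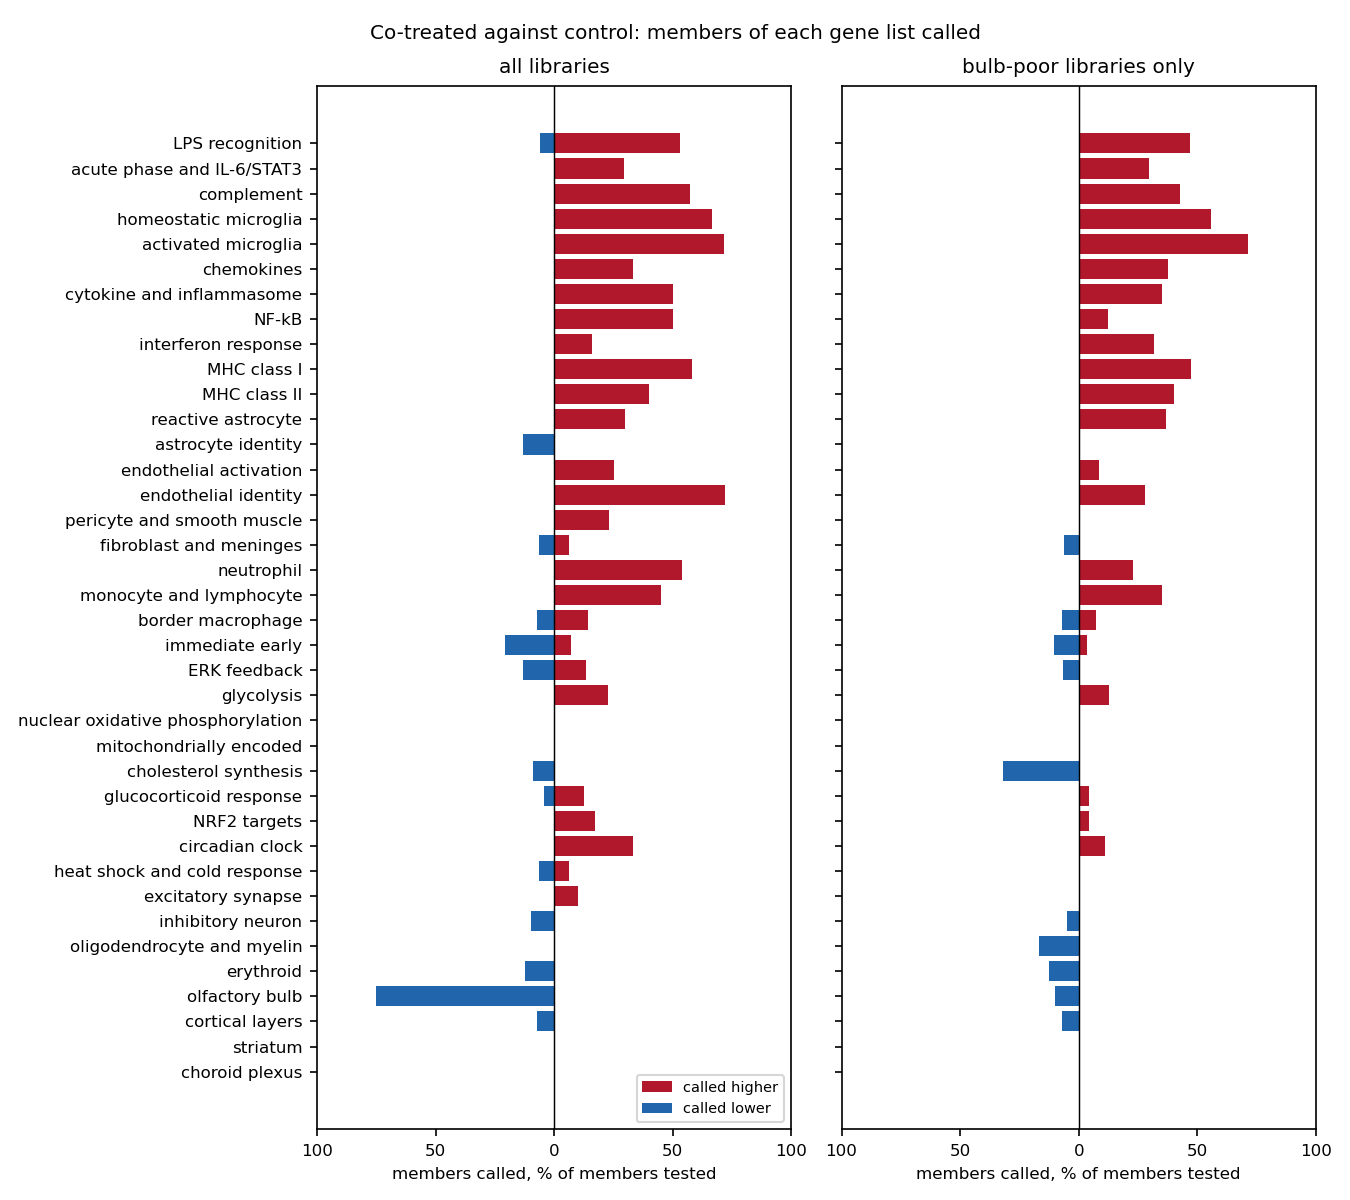
Members of each gene list called higher (right, red) or lower (left, blue) in co-treated than in control libraries, as a percentage of the members tested, with all libraries in the left panel and bulb-poor libraries in the right. Microglial, complement, LPS recognition and MHC class I lists have the long red bars in both panels; the long blue bar of the olfactory bulb list, 9 of 12 members with all libraries, shrinks to 1 of 10 in bulb-poor libraries.

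Chemokine and cytokine genes were raised in part. Of 15 chemokine genes tested 5 were called higher and 0 lower (median 0.73), with 6 of 16 in bulb-poor libraries, and 8 of the 23 listed did not pass the expression filter in the full set. Ccl5, which attracts T cells and monocytes, was at 0.259, 0.0464, 0.0491 and 0.209 CPM in control and 28.5, 21.0, 29.4, 34.1 and 15.2 CPM in co-treated libraries, against 20.7, 9.52, 22.8, 15.03 and 36.1 CPM in LPS libraries. The change from control was 7.37 ± 0.49 (adjusted p = 3.61e-08; 14 control counts in all), and the difference from LPS was 0.30 (-0.28 to 0.88). In bulb-poor libraries, with fewer control counts still, the fitted change was 8.90. Cxcl16, Ccl9 and Cxcl5 rose by 1.53, 1.16 and 1.14 on the log2 scale (SE 0.27, 0.18 and 0.25). Cxcl10, an interferon-induced chemokine, was not called with all libraries (1.89 ± 0.63, adjusted p = 0.0574), while bulb-poor libraries called it at 3.87 (adjusted p = 0.00144). Ccl2, the monocyte attractant, did not pass the filter, at 0 to 0.517 CPM in control and 0.0442 to 0.282 CPM in co-treated libraries.

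Of 20 cytokine and inflammasome genes 10 were called higher and 0 lower (median 0.81; bulb-poor 7 and 0). Il1b, interleukin-1 beta, was at 0.332, 0.0464, 0.295 and 0.459 CPM in control and 2.06, 2.07, 1.60, 1.15 and 1.12 CPM in co-treated libraries. In LPS libraries Il1b was at 1.88, 2.28, 1.44, 2.67 and 2.20 CPM. Every co-treated library exceeded every control library (2.45 ± 0.39, adjusted p = 0.000312; bulb-poor 3.21), at a low level in absolute terms, and the interval of the difference from LPS, -1.01 to 0.24, was wide. Il1rn, which encodes the natural antagonist of the interleukin-1 receptor, rose by 2.15 ± 0.54 (adjusted p = 0.0163), a call lost without control replicate 5 (adjusted p = 0.0643) and in bulb-poor libraries (adjusted p = 0.247). Il1a rose by 2.11 ± 0.26 and Nlrp3, the sensor of the inflammasome that processes interleukin-1, by 1.98 ± 0.25 (adjusted p = 1.93e-05 and 2.42e-05). Pycard, its adaptor, rose by 1.40 ± 0.17, and Tnfrsf1b, a receptor of tumour necrosis factor, by 1.28 ± 0.16. Tnf did not pass the expression filter, at 0.0464 to 0.147 CPM in control and 0.0431 to 0.0885 CPM in co-treated libraries.

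Of 16 NF-kB pathway genes 8 were called higher and 0 lower (median 0.47), but 2 in bulb-poor libraries. The count of 8 became 2 without control replicate 5, 3 without co-treated replicate 3 or 4, 4 without co-treated replicate 5, 5 without co-treated replicate 1 or control replicate 1 or 4. Nfkb1 and Nfkb2, which encode the precursors of the p50 and p52 subunits, kept their calls in all of these settings. Nfkb2 was at 4.14, 4.08, 2.997 and 2.34 CPM in control and 6.01, 6.16, 5.60, 6.72 and 5.90 CPM in co-treated libraries (0.84 ± 0.17, adjusted p = 0.00415), and Nfkb1 rose by 0.54 ± 0.12 (adjusted p = 0.00667). Nfkbia, which encodes the inhibitor IkB-alpha and is itself a target of the pathway, was at 31.1, 41.6, 21.8 and 31.1 CPM in control and 27.4, 25.6, 29.6, 31.4 and 30.0 CPM in co-treated libraries and was not called (log2 difference -0.13, -0.40 to 0.15, adjusted p = 0.566).

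Of 38 interferon-response genes 6 were called higher and 0 lower (median 0.27), and the bulb-poor libraries called 12 and 0 (median 0.67). Irf8, a transcription factor of myeloid cells, rose by 1.73 ± 0.12 and Irf7, an interferon-induced factor, by 1.21 ± 0.22 (adjusted p = 4.19e-08 and 0.00126). Gbp2, a guanylate-binding protein of cell-autonomous defence, was at 7.83, 6.68, 4.27 and 6.81 CPM in control and 9.44, 10.9, 9.50, 10.3 and 9.01 CPM in co-treated libraries. In LPS libraries Gbp2 was at 13.8, 16.7, 13.6, 14.2 and 13.02 CPM. It rose by 0.61 ± 0.14 (adjusted p = 0.00668), and its difference from LPS of -0.54 (adjusted p = 0.0294) was lost on leaving out, in turn, LPS replicates 2, 3 and 4, and co-treated replicates 1, 3, 4 and 5 (adjusted p = 0.0512 to 0.107) and in bulb-poor libraries (-0.44, adjusted p = 0.322). Gbp genes form a cluster of similar sequence, so reads may be shared.

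Antigen presentation genes of MHC class I, which display peptides from inside the cell, were called higher for 11 of 19 and lower for 0 (median 0.92; bulb-poor 9 and 0). H2-D1 was at 72.5, 53.7, 41.5 and 59.0 CPM in control and 215, 169, 226, 285 and 172 CPM in co-treated libraries. The groups did not overlap (1.91 ± 0.17, adjusted p = 5.41e-07), and the LPS libraries lay at 221 to 271 CPM. H2-K1 rose by 1.67 ± 0.15, B2m, the shared light chain, by 1.42 ± 0.15, and Tap1, a peptide transporter, by 1.11 ± 0.19 (adjusted p = 3.64e-07, 2.86e-06 and 0.000574). The H2 genes are near-identical in parts, so their individual values are uncertain. Of 10 MHC class II genes 4 were called higher and 0 lower (median 0.20), in bulb-poor libraries too. Without control replicate 4, however, 4 of the 10 were called lower, so the list did not move in 1 direction. Those called higher included Ctss, the protease that trims the invariant chain, at 65.0 to 103 CPM in control and 184 to 271 CPM in co-treated libraries (1.57 ± 0.15, adjusted p = 1.23e-06), and H2-Ob, at 0.442 to 0.877 CPM in control, 2.11 to 3.36 CPM in co-treated and 1.46 to 1.79 CPM in LPS libraries.

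**Figure D4:**
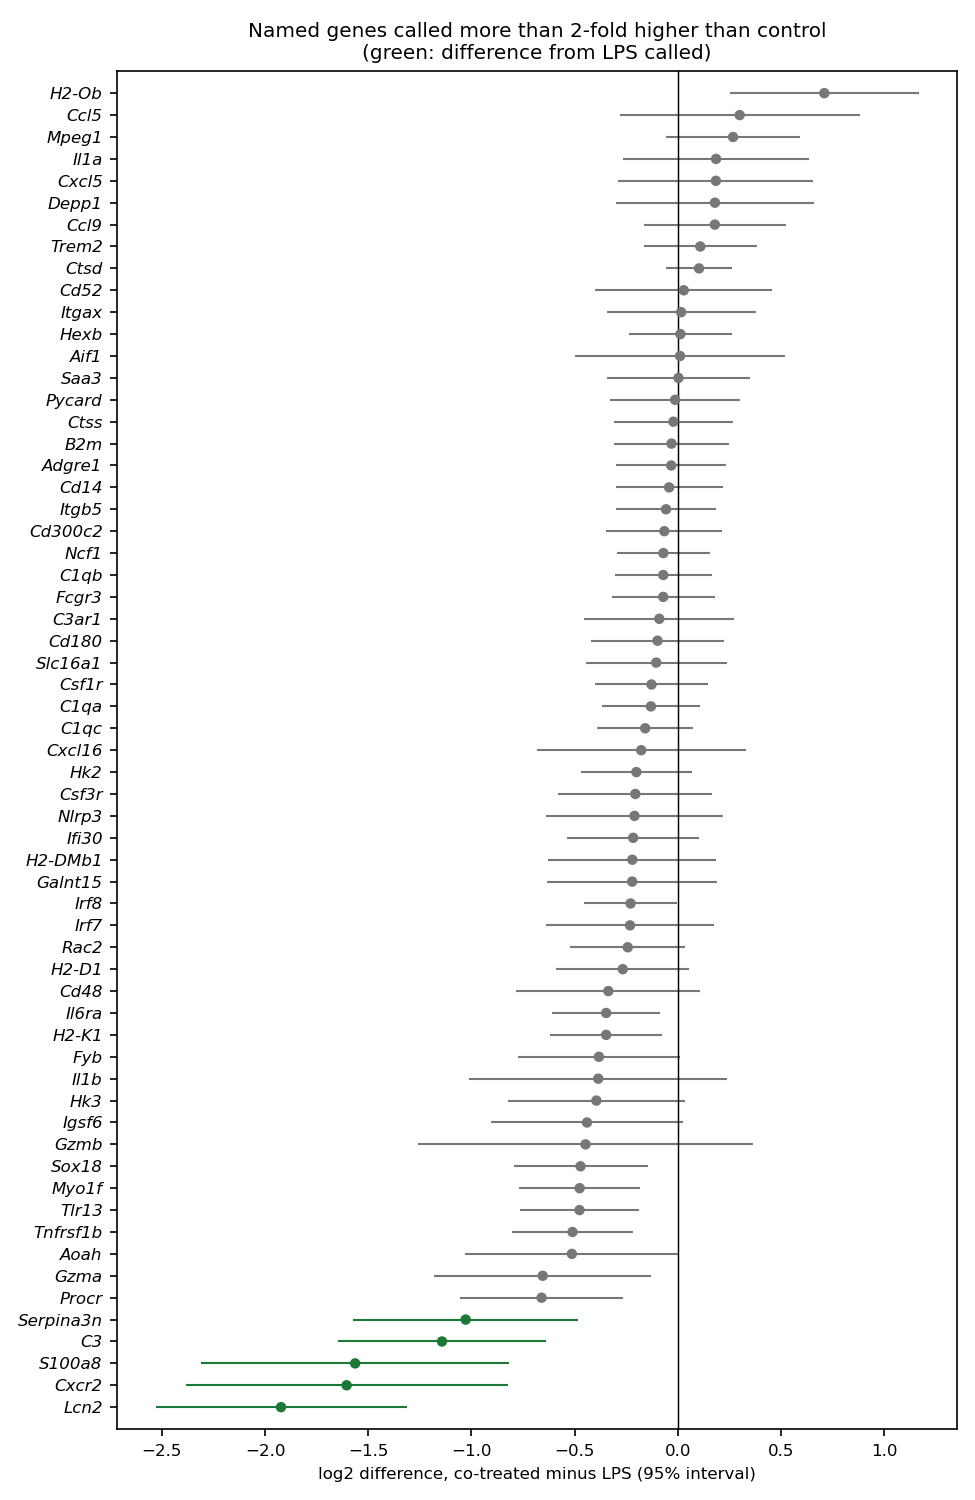
Log2 difference between co-treated and LPS libraries with its 95% interval for the 61 genes named by rule that were called more than 2-fold higher in co-treated than in control libraries. For 46 of them the interval includes 0. The difference is called, in green, for 5, which are Lcn2, Cxcr2, S100a8, C3 and Serpina3n, beside 1.97% of all genes tested. Most of these genes were picked by their rise in the same co-treated libraries, so the counts describe them and are no separate support. Genes named after their values were seen, Cybb, Itgal and Mmp9 among them, are not drawn.

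Reactive astrocyte genes were called higher in co-treated than in control libraries for 9 of 30 members and lower for 0 (median 0.19; bulb-poor 11 and 0, median 0.46). LPS libraries had 18 called higher and 1 lower against the same controls, and in the direct test 9 of the 30 were called lower and 0 higher under co-treatment. Over all genes tested the direct test called 1.68% lower. Against control, LPS libraries had 8.47% of all genes called higher and 2.44% lower, and co-treated libraries 6.38% and 4.69%. The 9 called higher than control were Lcn2, Serpina3n, Osmr, Ggta1, H2-D1, H2-T23, Gbp2, Psmb8 and Cd14, and all but Ggta1 stand in other lists as well; Lcn2, Cd14, Gbp2 and the H2 genes are also expressed by myeloid or endothelial cells. Gfap, the astrocyte intermediate filament, was at 371, 193, 120.2 and 229 CPM in control and 425, 337, 444, 482 and 458 CPM in co-treated libraries. Control replicate 1 overlapped the co-treated values, and the change of 0.91 ± 0.36 was not called (adjusted p = 0.110). In bulb-poor libraries it was 1.44 ± 0.22 and called (adjusted p = 0.00161). Astrocyte identity genes gave 0 called higher and 2 lower of 15 (0 and 0 in bulb-poor libraries); Slc1a2, a glutamate transporter, was at 2826 ± 1023 CPM in control and 3121 ± 381 CPM in co-treated libraries (adjusted p = 0.687). Of the 2 called lower, Slc4a4, a bicarbonate cotransporter, was at 336, 178, 147 and 247 CPM in control and 149, 143, 138, 152 and 118 CPM in co-treated libraries, highest in the bulb-rich control replicates 1 and 5, and lost its call on leaving out, in turn, co-treated replicates 1, 2, 3, 4 and 5, and control replicates 1 and 5, and sedanolide replicates 4 and 5 (adjusted p = 0.0505 to 0.209) and in bulb-poor libraries (adjusted p = 0.373). The other, Gpc5, a glypican, with a change of -0.35 ± 0.11 (adjusted p = 0.0400), lost its call on leaving out, in turn, co-treated replicates 1, 3 and 5, and control replicates 1, 2, 4 and 5 (adjusted p = 0.0516 to 0.0846) and in bulb-poor libraries (adjusted p = 0.0845).

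Endothelial genes were called higher than control for 18 of 25 identity genes and 6 of 24 activation genes. In the direct test with all libraries 5 of 25 identity genes and 9 of 24 activation genes were called lower than in LPS libraries. The share over all genes tested was 1.68%. Of 25 endothelial identity genes 18 were called higher and 0 lower (median 0.52), with 7 and 0 in bulb-poor libraries; the count of 18 became 10 without control replicate 5, 11 without control replicate 1. Sox18, an endothelial transcription factor, was at 7.50, 10.1, 6.98 and 7.10 CPM in control and 18.5, 18.2, 20.4, 19.2 and 24.2 CPM in co-treated libraries (1.34 ± 0.17, adjusted p = 3.58e-05). Cldn5, the main tight-junction claudin of the blood-brain barrier, rose by 0.64 ± 0.11 and Slc7a5, a transporter of large neutral amino acids, by 0.91 ± 0.12 (adjusted p = 0.000703 and 3.26e-05). These 3 kept their calls in bulb-poor libraries. Slc2a1, the glucose transporter of brain endothelium, was at 118, 164, 95.1 and 116 CPM in control and 188, 169, 194, 216 and 191 CPM in co-treated libraries. In LPS libraries Slc2a1 was at 349.6, 344, 265, 246 and 241 CPM. It rose by 0.64 ± 0.14 from control (adjusted p = 0.00618) and was lower than in LPS by a log2 difference of -0.59 ± 0.13 (adjusted p = 0.0209). In bulb-poor libraries neither was called (0.56, adjusted p = 0.124; -0.61, adjusted p = 0.222), and the difference from LPS was lost on leaving out, in turn, LPS replicates 1 and 2, and co-treated replicates 1, 2, 3 and 5 (adjusted p = 0.0526 to 0.0723).

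Of 24 endothelial activation genes 6 were called higher and 0 lower (median 0.30; 2 and 0 of 23 in bulb-poor libraries; 3 without control replicate 1). LPS libraries had 17 called higher against control where co-treated libraries had 6. The shares of all genes tested were 8.47% in LPS and 6.38% in co-treated libraries. The 6 were Icam1, Vwf, Ly6e, Pecam1, Procr and Lcn2. Vwf, the adhesive protein that endothelium releases on activation, was at 23.5, 39.5, 17.1 and 19.3 CPM in control and 42.8, 46.8, 46.7, 57.2 and 42.6 CPM in co-treated libraries. In LPS libraries Vwf was at 142, 227, 139.7, 122 and 102 CPM. The co-treated libraries lay above control and below every LPS library. The change from control was 0.93 ± 0.24 (adjusted p = 0.0185), lost on leaving out, in turn, control replicates 1 and 5 (adjusted p = 0.0583 to 0.0748) and in bulb-poor libraries (adjusted p = 0.186). The difference from LPS was -1.64 ± 0.22 (adjusted p = 0.000834) and was called in all 19 fits without 1 library and in bulb-poor libraries (-1.36, adjusted p = 0.0409). Vwf was named after its values were seen, so these calls are no separate support. Icam1, an adhesion receptor for leukocytes, was at 3.09 ± 1.18 CPM in control, 5.67 ± 0.943 CPM in co-treated and 11.9 ± 3.84 CPM in LPS libraries. Its change from control of 0.88 (adjusted p = 0.0299) was lost on leaving out, in turn, co-treated replicates 4 and 5, and control replicates 1, 4 and 5 (adjusted p = 0.0522 to 0.0965) and in bulb-poor libraries (adjusted p = 0.192). Selp, P-selectin, was at 0 to 0.129 CPM in co-treated and 0.375 to 1.46 CPM in LPS libraries, with 2 counts in all control libraries.

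Pericyte and smooth muscle genes were called higher for 3 of 13 and lower for 0, and for 0 in bulb-poor libraries; the 3 were Abcc9, Kcnj8 and Rgs5, with log2 changes of 0.73, 0.61 and 0.65 (bulb-poor adjusted p = 0.0931, 0.273 and 0.164), and Kcnj8 lost its call without control replicate 5 (adjusted p = 0.0502). Fibroblast and meningeal genes had 1 called higher and 1 lower of 16, beside 6.38% and 4.69% of all genes tested. In bulb-poor libraries the list had 0 and 1. The summed CPM of the list ran from 319 to 1649.5 among control libraries and from 393 to 634 among co-treated libraries. Col4a1, a basement membrane collagen and the member called higher, was at 47.5, 47.9, 28.7 and 35.2 CPM in control and 55.7, 53.9, 63.6, 71.6 and 65.0 CPM in co-treated libraries. In LPS libraries Col4a1 was at 103, 152, 113, 90.3 and 94.3 CPM. Its change of 0.64 ± 0.17 (adjusted p = 0.0260) was lost on leaving out, in turn, co-treated replicates 3, 4 and 5, and control replicates 4 and 5 (adjusted p = 0.0519 to 0.0917) and in bulb-poor libraries (adjusted p = 0.0560), whereas the difference from LPS of -0.84 ± 0.16 (adjusted p = 0.0106) was called in every fit without 1 library but not in bulb-poor libraries (adjusted p = 0.176).

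Part of the blood leukocyte markers stood above control in the co-treated libraries, at low levels. Of 13 neutrophil genes 7 were called higher and 0 lower (median 1.33; bulb-poor 3 and 0). The summed CPM of the list ran from 9.94 to 16.3 in control, 40.6 to 54.8 in co-treated and 93.3 to 130.5 in LPS libraries, and the 3 ranges did not overlap. In the direct test with all libraries 9 of the 13 were called lower than in LPS libraries, against 1.68% of all genes tested. Lcn2 is part of these sums and counts and stands in the acute-phase, reactive astrocyte and endothelial activation lists as well, so they do not rest on neutrophil genes alone. Csf3r, the receptor of granulocyte colony-stimulating factor and the most expressed member, which microglia also express, rose by 1.95 ± 0.21 (adjusted p = 3.51e-06), with a difference from LPS of -0.21 (-0.58 to 0.17). Cxcr2, a neutrophil chemokine receptor, was at 0.148, 0, 0.147 and 0.0835 CPM in control and 0.642, 0.836, 0.658, 0.354 and 1.21 CPM in co-treated libraries. In LPS libraries Cxcr2 was at 1.97, 1.64, 2.59, 2.77 and 2.36 CPM. Its change from control was 2.87 ± 0.56 (9 control counts, adjusted p = 0.00270) and its difference from LPS -1.60 ± 0.37 (adjusted p = 0.0299). The latter was lost on leaving out, in turn, LPS replicates 3 and 4, and co-treated replicates 1, 2, 3 and 4 (adjusted p = 0.0649 to 0.0862) and in bulb-poor libraries (adjusted p = 0.201).

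S100a8 and S100a9, which form calprotectin, rose by 2.14 ± 0.44 and 1.86 ± 0.43 (adjusted p = 0.00390 and 0.0109). S100a8 was at 0.850, 0.464, 1.92 and 0.877 CPM in control and 3.39, 8.63, 5.64, 3.05 and 1.81 CPM in co-treated libraries, so that control replicate 4 overlapped co-treated replicate 5, and neither gene was called in bulb-poor libraries (1.93, adjusted p = 0.142; 1.57, adjusted p = 0.206). S100a9 also lost its call without control replicate 5 (adjusted p = 0.0506). In LPS libraries S100a8 was at 12.6, 12.1, 10.7, 15.3 and 15.9 CPM, above every co-treated library. Its difference from LPS of -1.56 ± 0.36 (adjusted p = 0.0287) was lost on leaving out, in turn, LPS replicates 2 and 4, and co-treated replicates 1, 3, 4 and 5 (adjusted p = 0.0580 to 0.0856) and in bulb-poor libraries (-1.65, adjusted p = 0.236). Mmp9, a gelatinase of neutrophil granules, was at 0.841 ± 0.268 CPM in control, 1.93 ± 0.740 CPM in co-treated and 5.92 ± 0.748 CPM in LPS libraries, with a change from control of 1.19 (adjusted p = 0.00821) that was not called in bulb-poor libraries (adjusted p = 0.0834). Against LPS the log2 difference was -1.61 ± 0.23 (adjusted p = 0.00106), called also in bulb-poor libraries (-1.63, adjusted p = 0.0398) and in all fits without 1 library. Itgal, the alpha chain of the leukocyte integrin LFA-1, was at 1.03, 0.881, 0.393 and 0.585 CPM in control and 2.06, 2.02, 2.07, 2.70 and 1.85 CPM in co-treated libraries. In LPS libraries Itgal was at 5.45, 13.6, 10.9, 9.48 and 10.4 CPM. The 3 groups did not overlap (1.54 ± 0.31 from control, adjusted p = 0.00379, and -2.22 ± 0.26 from LPS, adjusted p = 0.000165), and the bulb-poor libraries gave both calls. Mmp9 and Itgal were named after their values were seen, so their calls in these other fits are no separate support.

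Of 20 monocyte and lymphocyte genes 9 were called higher and 0 lower (median 0.99; bulb-poor 7 and 0). In the direct test 4 of the 20, Itgal among them, were called lower than in LPS libraries, and 0 higher, against 1.68% called lower over all genes tested. Genes of cytotoxic lymphocytes were among the 9 called higher than control. Gzma, a granule protease, was at 0.259, 0.0927, 0.147 and 0.125 CPM in control and 2.70, 2.55, 2.68, 2.43 and 1.38 CPM in co-treated libraries (3.83 ± 0.37, adjusted p = 1.13e-06), and Nkg7, a granule protein, rose by 2.96 ± 0.51 (adjusted p = 0.000773, 8 control counts; bulb-poor 3.73). Cd8a was at 0 to 0.125 CPM in control and 0.172 to 0.642 CPM in co-treated libraries (5 control counts, adjusted p = 0.0149). The LPS libraries held Gzma at 2.59 to 4.85 CPM, Nkg7 at 0.564 to 1.18 CPM and Cd8a at 0.141 to 0.643 CPM, each overlapping the co-treated range. Of 14 border macrophage genes 2 were called higher and 1 lower (bulb-poor 1 and 1), beside 6.38% and 4.69% over all genes tested. Against LPS libraries 7 of the 14 were called lower (1.68% over all genes tested). The count of 2 became 1 without co-treated replicate 1, 3 or 4 or control replicate 1, 4 or 5, and that of 1 lower 3 without control replicate 4. The member called lower was Lyve1, a hyaluronan receptor of perivascular macrophages and lymphatic vessels. It was at 2.70, 3.43, 0.933 and 1.80 CPM in control and 0.642, 0.352, 0.376, 0.619 and 0.474 CPM in co-treated libraries, without overlap (of all genes tested, 4.93% had every co-treated below every control library), a change of -2.16 ± 0.35 (adjusted p = 0.000471) that held in bulb-poor libraries (-2.15, adjusted p = 0.00810). Stab1, a scavenger receptor of such macrophages, rose by 0.91 ± 0.19 (adjusted p = 0.00516), and Maf, a macrophage transcription factor, by 0.46 ± 0.13 (adjusted p = 0.0293), a call lost on leaving out, in turn, co-treated replicates 1, 3 and 4, and control replicates 1, 4 and 5 (adjusted p = 0.0562 to 0.102) and in bulb-poor libraries (adjusted p = 0.355).

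Activity-regulated genes split. Of 29 immediate early genes 2 were called higher and 6 lower (median -0.32, bulb-poor 1 and 3). The count of 2 higher became 1 without co-treated replicate 2 or 3 or control replicate 1 or 5. Homer1, 1 of the 2, is also in the excitatory synapse list. The count of 6 lower became 2 without co-treated replicate 1 or 4 or control replicate 1 or 5, 3 without co-treated replicate 2 or 3, 11 without control replicate 2. LPS libraries had 0 called higher and 15 lower against the same controls, and in the direct test 8 were called higher under co-treatment than under LPS and 0 lower. Over all genes tested the direct test called 0.287% higher. Against control, LPS libraries had 8.47% of all genes called higher and 2.44% lower, and co-treated libraries 6.38% and 4.69%. Arc, a synaptic plasticity gene of excitatory neurons, was at 315, 344, 244 and 303 CPM in control and 340.3, 379, 357, 422 and 303 CPM in co-treated libraries. In LPS libraries Arc was at 165, 99.6, 110.3, 175 and 104 CPM. Co-treated and control libraries overlapped (log2 difference 0.26, -0.11 to 0.62, adjusted p = 0.352), and every co-treated library exceeded every LPS library (1.46 ± 0.17, adjusted p = 0.000154; bulb-poor 1.43, adjusted p = 0.0133). Egr2, a zinc-finger factor induced by activity, was at 28.4, 28.5, 24.2 and 30.1 CPM in control and 26.0, 29.3, 26.6, 24.2 and 22.6 CPM in co-treated libraries. In LPS libraries Egr2 was at 8.84, 10.6, 8.18, 12.6 and 9.97 CPM. It showed the same placing, with a difference from control of -0.11 (-0.35 to 0.13) and from LPS of 1.36 ± 0.11 (adjusted p = 3.81e-06). Egr1 differed from control by -0.03 (-0.32 to 0.26) and from LPS by 0.67 ± 0.13 (adjusted p = 0.0106), and Bdnf, a neurotrophin, differed from control by 0.46 (-0.12 to 1.04, adjusted p = 0.290).

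Some other immediate early genes were below control. Sedanolide libraries without LPS had 10 of 29 called lower and 3 higher against the same controls. Over all genes tested, sedanolide libraries had 375 of 17757 called lower and 568 higher, and 8 called in all in bulb-poor libraries. Ccn2, which encodes a matricellular protein also made by vascular cells, was at 53.5, 35.8, 40.1 and 50.5 CPM in control, 16.6, 10.6, 14.6, 15.3 and 18.5 CPM in co-treated, 24.9, 33.7, 23.6, 30.4 and 14.5 CPM in LPS and 9.29, 18.8, 23.8, 16.2 and 13.9 CPM in sedanolide libraries. The co-treated values lay below all control values (-1.57 ± 0.24, adjusted p = 0.000293), and the call held in each fit without 1 library and in bulb-poor libraries (-1.33, adjusted p = 0.00548). Fos, an AP-1 subunit, was at 134, 75.0, 85.9 and 114 CPM in control and 57.9, 53.6, 64.4, 57.1 and 71.7 CPM in co-treated libraries. In LPS libraries Fos was at 30.0, 26.1, 26.8, 54.0 and 23.2 CPM. Its log2 change from control was -0.75 ± 0.20 (adjusted p = 0.0236) and its difference from LPS 0.93 ± 0.19 (adjusted p = 0.0166), the latter lost on leaving out, in turn, LPS replicate 2, and co-treated replicate 5 (adjusted p = 0.0556 to 0.0594) but called in bulb-poor libraries (1.21, adjusted p = 0.00149). The call against control was lost on leaving out, in turn, co-treated replicates 1, 2 and 4, and control replicates 1 and 5 (adjusted p = 0.0511 to 0.102) and in bulb-poor libraries (-0.40, adjusted p = 0.102). Ier5 was called higher, at 67.9, 73.2, 63.4 and 72.5 CPM in control and 98.0, 129, 110.2, 101 and 90.5 CPM in co-treated libraries (0.61 ± 0.13, adjusted p = 0.00548).

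Among 15 genes of the ERK feedback loop, which limits signalling by the MAP kinase ERK, 2 were called higher and 2 lower (bulb-poor 0 and 1). The higher count became 1 without control replicate 1 or 5, and the lower count 0 without co-treated replicate 1 or 2 or control replicate 1 or 5. All genes tested gave 6.38% called higher and 4.69% called lower. Dusp6, an ERK phosphatase, was at 54.6, 79.9, 66.3 and 70.7 CPM in control and 101, 110.5, 99.1, 89.1 and 84.3 CPM in co-treated libraries. In LPS libraries Dusp6 was at 56.4, 48.5, 53.0, 61.5 and 60.4 CPM. It exceeded control by 0.51 ± 0.13 (adjusted p = 0.0193), a call lost without control replicate 1 (adjusted p = 0.0782) and in bulb-poor libraries (adjusted p = 0.104). Against LPS the difference was called too (0.79 ± 0.12, adjusted p = 0.00243; bulb-poor 0.74, adjusted p = 0.0272). Dusp1, another MAP kinase phosphatase, was at 68.8, 67.0, 70.0 and 71.4 CPM in control and 44.7, 41.6, 49.1, 47.6 and 49.99 CPM in co-treated libraries. In LPS libraries Dusp1 was at 28.0, 20.9, 22.5, 38.7 and 19.5 CPM. Its 3 groups did not overlap (-0.57 ± 0.15 from control, adjusted p = 0.0228; 0.85 ± 0.15 from LPS, adjusted p = 0.00498), though the call against control was lost on leaving out, in turn, co-treated replicates 1 and 2, and control replicates 1 and 5 (adjusted p = 0.0504 to 0.0673).

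Glycolysis genes were called higher for 7 of 31 members and lower for 0 (median 0.15; bulb-poor 4 and 0). The series' title names microglial glycolysis, and bulk tissue does not show in which cells a transcript lies; 2 of the 7, Slc2a1 and Slc16a1, are also in the endothelial identity list. Hk2, a hexokinase, was at 4.36, 7.56, 4.91 and 4.76 CPM in control and 14.1, 11.3, 13.6, 17.5 and 13.7 CPM in co-treated libraries. In LPS libraries Hk2 was at 17.2, 15.6, 15.8, 14.8 and 17.2 CPM. It rose by 1.38 ± 0.14 (adjusted p = 2.86e-06; bulb-poor 1.16, adjusted p = 0.00156), and its difference from LPS was -0.20 (-0.47 to 0.07, adjusted p = 0.377). Hk3, a hexokinase of myeloid cells, rose by 1.27 ± 0.23, Pfkfb3, which makes an activator of phosphofructokinase, by 0.56 ± 0.09, and Slc16a1, a monocarboxylate transporter, by 1.09 ± 0.18 (adjusted p = 0.00154, 0.000312 and 0.000484). These 4 genes were called in bulb-poor libraries as well. The abundant enzymes of the pathway moved little: Ldha was at 198, 291, 364 and 289 CPM in control and 361, 352, 368, 339.8 and 397 CPM in co-treated libraries (log2 difference 0.35, 0.05 to 0.64, adjusted p = 0.111), and Pkm at 988 ± 83.6 and 1100.3 ± 73.8 CPM (adjusted p = 0.199). Tpi1 was called at 0.28 ± 0.09 (adjusted p = 0.0466) and Pfkl at 0.40 ± 0.12 (adjusted p = 0.0315). Tpi1 lost its call on leaving out, in turn, LPS replicates 1, 3, 4 and 5, and co-treated replicates 1, 2, 3, 4 and 5, and control replicates 1, 2 and 5, and sedanolide replicates 4 and 5 (adjusted p = 0.0507 to 0.172), Pfkl lost its call on leaving out, in turn, co-treated replicates 3, 4 and 5, and control replicates 1 and 5 (adjusted p = 0.0575 to 0.124), and both were uncalled in bulb-poor libraries (adjusted p = 0.306 and 0.339). Hif1a, a regulator of glycolytic genes, differed by -0.08 (-0.26 to 0.11, adjusted p = 0.614).

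Of 24 glucocorticoid-response genes 3 were called higher and 1 lower (bulb-poor 1 and 0). The shares among all genes tested were 6.38% higher and 4.69% lower (bulb-poor 2.68% and 0.789%). The count of 3 became 1 without control replicate 1 or 5, and the count of 1 lower became 2 without LPS replicate 2 or control replicate 2, 4 without control replicate 4. Fkbp5, a chaperone of the glucocorticoid receptor and a standard target of it, was at 32.2, 25.5, 24.6 and 27.4 CPM in control and 33.1, 29.0, 35.1, 35.7 and 36.8 CPM in co-treated libraries. In LPS libraries Fkbp5 was at 69.2, 66.8, 52.9, 51.2 and 42.6 CPM. It was not called against control (0.31, 0.03 to 0.58, adjusted p = 0.138), and every co-treated library lay below every LPS library (-0.74 ± 0.12, adjusted p = 0.00422; bulb-poor -0.71, adjusted p = 0.0647). Ddit4, a stress-induced inhibitor of mTORC1, was lower than control at 55.9 ± 7.23 against 77.6 ± 6.44 CPM (-0.47 ± 0.11, adjusted p = 0.0106), and in bulb-poor libraries the adjusted p was 0.0848. Of 18 clock genes 6 were called higher and 0 lower (bulb-poor 2 and 0; 3 without control replicate 5). Per2, a clock repressor, was at 25.2, 32.5, 29.1 and 25.3 CPM in control and 44.2, 43.0, 42.5, 42.6 and 52.7 CPM in co-treated libraries (0.69 ± 0.10, adjusted p = 0.000225; bulb-poor 0.54, adjusted p = 0.0214). Bhlhe40 rose by 0.67 ± 0.15 (adjusted p = 0.00966); the time of day of tissue collection was not given in the sources used here, so its part in the clock genes was not tested.

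Of 23 NRF2 target genes 4 were called higher and 0 lower (bulb-poor 1 and 0; 1 without co-treated replicate 3, 2 without co-treated replicate 1 or 4 or control replicate 1 or 5). Hmox1, the haem-degrading enzyme, was at 5.76, 4.36, 3.39 and 5.64 CPM in control and 7.98, 7.17, 8.32, 7.92 and 7.76 CPM in co-treated libraries (0.70 ± 0.17, adjusted p = 0.0151; bulb-poor 1.004, adjusted p = 0.00574). Of 22 cholesterol synthesis genes 0 were called higher and 2 lower (median -0.12), while the bulb-poor libraries called 7 lower (median -0.34). Idi1 and Insig1, an isomerase and a sterol sensor, were the 2, with changes of -0.59 ± 0.15 and -0.40 ± 0.10 (bulb-poor -0.89 and -0.57, adjusted p = 0.000364 and 0.00332). Idi1 lost its call without control replicate 4 (adjusted p = 0.0608) and Insig1 without control replicate 4 (adjusted p = 0.0592).

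Genes called lower were led by the olfactory bulb. Of 12 bulb genes tested 9 were called lower and 0 higher (median -5.63); in bulb-poor libraries 1 of 10 was called lower (median -0.40), and the count of 9 became 0 without co-treated replicate 1 or 4 or control replicate 1 or 5, 1 without co-treated replicate 2, 3 or 5. Omp, the olfactory marker protein, was at 187, 1.11, 0.737 and 84.1 CPM in control replicates 1, 2, 4 and 5 and at 0.229, 0.440, 0.470, 0.796 and 0.259 CPM in co-treated libraries. The difference of -7.27 ± 2.09 (adjusted p = 0.0357) came with 2 high control libraries, and among bulb-poor libraries it was -1.08 (adjusted p = 0.234). Doc2g, Cdhr1 and Th, with changes of -6.09, -5.17 and -4.84 with all libraries, differed by -0.28, -0.22 and -0.52 in bulb-poor libraries and were not called there. Bulb-poor libraries were chosen by low Cdhr1, so the small Cdhr1 difference among them was set by that choice. The drop in calls of the bulb list there is no separate support either. Omp lost its call on leaving out, in turn, co-treated replicates 1, 2, 3, 4 and 5, and control replicates 1 and 5 (adjusted p = 0.0684 to 0.124), and Cdhr1 on leaving out, in turn, co-treated replicates 1, 2, 3, 4 and 5, and control replicates 1 and 5 (adjusted p = 0.0698 to 0.151). Of the 15 genes called lower with the largest change that the naming rule gave, Sp7 alone was called in bulb-poor libraries, at -1.61 (adjusted p = 0.0390). With all libraries its change was -5.33, and that call was lost on leaving out, in turn, co-treated replicates 1, 2, 3, 4 and 5, and control replicates 1 and 5 (adjusted p = 0.0716 to 0.149). Gad2, a GABA-synthesizing enzyme abundant in the bulb, was at 395, 154, 156 and 274 CPM in control and 135, 134, 134, 131 and 126 CPM in co-treated libraries, a change of -0.89 that was -0.24 in bulb-poor libraries (adjusted p = 0.164) and lost its call on leaving out, in turn, co-treated replicates 1, 2, 3, 4 and 5, and control replicates 1 and 5 (adjusted p = 0.0634 to 0.197).

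The genes called lower in both settings were few, and those named here were picked after their values were seen. Xlr3b, an X-linked gene with close copies, was at 3.77, 11.1, 5.65 and 5.22 CPM in control and 1.28, 0.660, 1.505, 1.28 and 2.50 CPM in co-treated libraries (-2.15 ± 0.55, adjusted p = 0.0189; bulb-poor -2.54, adjusted p = 0.0428). Hba-a2, an alpha-globin gene with a near-identical copy, was at 10.2, 8.30, 7.27 and 10.2 CPM in control and 2.15, 1.14, 2.68, 3.10 and 2.20 CPM in co-treated libraries (-1.998 ± 0.51, adjusted p = 0.0185; bulb-poor -1.80, adjusted p = 0.0237), and lost its call on leaving out, in turn, control replicates 1 and 5 (adjusted p = 0.0503 to 0.0550). It was the member called lower of 8 erythroid genes; Hbb-bs, a beta-globin gene, at 153, 134, 116 and 137 CPM and 31.6, 12.1, 37.3, 47.4 and 21.4 CPM, was not called (adjusted p = 0.0515). Thbs1, a matricellular protein, fell from 6.04 ± 2.31 to 2.27 ± 0.527 CPM (-1.41 ± 0.37, adjusted p = 0.0198; bulb-poor -1.26, adjusted p = 0.0362), and lost its call on leaving out, in turn, co-treated replicate 4, and control replicate 1 (adjusted p = 0.0511 to 0.0730). Bche, butyrylcholinesterase, changed by -1.57 ± 0.36 (adjusted p = 0.00996; bulb-poor -1.76, adjusted p = 0.0282), though co-treated replicate 4 lay above control replicate 4. Creb5, a transcription factor of the CREB family, was at 3.55, 4.64, 4.96 and 3.67 CPM in control and 2.70, 2.51, 2.30, 2.48 and 1.77 CPM in co-treated libraries (-0.83 ± 0.20, adjusted p = 0.0124; bulb-poor -1.03, adjusted p = 0.00532). Foxp2, a transcription factor of deep cortical layers, was at 15.2, 10.5, 21.2 and 17.6 CPM in control and 8.16, 7.26, 8.18, 8.98 and 7.11 CPM in co-treated libraries (-1.02 ± 0.18, adjusted p = 0.000946; bulb-poor -0.9996, adjusted p = 0.0104). It was the called member of 14 cortical layer genes, in bulb-poor libraries as well, beside 4.69% of all genes tested called lower (bulb-poor 0.789%). The count of 1 lower in that list became 2 without sedanolide replicate 3, 4 without control replicate 2, and the count of 0 higher became 1 without LPS replicate 2 or sedanolide replicate 1 or 3, 2 without control replicate 2.

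Neuronal, myelin and respiratory gene lists gave few calls, beside 6.38% called higher and 4.69% called lower of all genes tested. No member was called of 32 nuclear oxidative phosphorylation genes, 13 mitochondrially encoded genes, 18 oligodendrocyte and myelin genes, 11 striatal genes or 8 choroid plexus genes, where bulb-poor libraries called 3 myelin genes lower and no member of the other 4 lists. Of 16 heat shock and cold response genes 1 was called higher, Sdf2l1 (0.45 ± 0.12, adjusted p = 0.0233), and 1 lower, Cirbp (-0.34 ± 0.11, adjusted p = 0.0442), and 0 in bulb-poor libraries. Sdf2l1 lost its call on leaving out, in turn, co-treated replicate 3, and control replicate 1 (adjusted p = 0.0553 to 0.0571), and Cirbp on leaving out, in turn, LPS replicate 3, and co-treated replicates 1, 2, 3, 4 and 5, and control replicates 1, 4 and 5 (adjusted p = 0.0538 to 0.136). Of 20 excitatory synapse genes 2 were called higher, Homer1 and Shank3, and 0 in bulb-poor libraries. Homer1 lost its call on leaving out, in turn, co-treated replicates 2 and 3, and control replicates 1 and 5 (adjusted p = 0.0522 to 0.103), and Shank3 on leaving out, in turn, co-treated replicates 1, 2, 3, 4 and 5, and control replicates 1 and 5 (adjusted p = 0.0547 to 0.137). The count of 2 became 0 without co-treated replicate 2 or 3 or control replicate 1 or 5, 1 without co-treated replicate 1, 4 or 5, 6 without control replicate 2. Of 20 inhibitory neuron genes 2 were called lower, Gad2 and Cort, and 1 in bulb-poor libraries. That count of 2 became 0 without co-treated replicate 1, 2, 3 or 5 or control replicate 5, 1 without LPS replicate 3 or co-treated replicate 4 or control replicate 1, 5 without sedanolide replicate 3, 6 without control replicate 2 or 4. Gad2 lost its call on leaving out, in turn, co-treated replicates 1, 2, 3, 4 and 5, and control replicates 1 and 5 (adjusted p = 0.0634 to 0.197). Cort, the neuropeptide cortistatin, was at 7.61, 13.9, 16.2 and 11.3 CPM in control and 7.70, 7.13, 8.42, 10.1 and 7.93 CPM in co-treated libraries (-0.57 ± 0.17, adjusted p = 0.0419), with a bulb-poor change of -0.87 (adjusted p = 0.00373), and lost its call on leaving out, in turn, LPS replicate 3, and co-treated replicates 1, 2, 3 and 5, and control replicates 2, 4 and 5 (adjusted p = 0.0514 to 0.119). Counts of few calls moved when 1 library was left out: without control replicate 4, 9 fibroblast and meningeal, 3 choroid plexus and 4 MHC class II genes were called lower, and without LPS replicate 1 or 4, 4 erythroid genes were. A list with no call does not show that its genes were equal between the groups.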

How the data were processed

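Poly(A) RNA from medial prefrontal cortex was made into stranded libraries, per the labels' protocols. The authors deposited raw read counts per gene, 1 column per library, for 57010 genes; fastp, HISAT2, StringTie, RSEM and DESeq2 are listed in the submitters' processing notes, without versions or roles. Genome build, annotation and strand setting of the counting are not given in the sources used here, so overlapping and antisense genes, and close copies, may share or split reads.

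From the deposited counts, edgeR 4.0.16 (R 4.3.3) fitted its quasi-likelihood model with TMM factors to all 19 libraries, with 1 mean per group and the filter of filterByExpr, which left 17757 genes. P-values were Benjamini-Hochberg adjusted over these genes and called below 0.05. Log2 changes carry standard errors, and 95% intervals come from the same fit. CPM use the TMM-scaled library size. At 19.08 M to 24.32 M counts per library, genes with few counts have wide errors. The bulb-poor fit kept libraries with Cdhr1 under 20 CPM. The bulb index of a library was its mean log2 CPM of Eomes, Cdhr1, Doc2g and Shisa3, which are also in the olfactory bulb list. Alternatives were RLE and upper-quartile factors, other filters, DESeq2 1.42.0, limma-voom (limma 3.58.1), the 2 compared groups alone, the replicate number as a block, a bulb index, a minimum fold of 1.5, offsets for length and GC content, and leaving out each library.

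Named genes were the 15 protein-coding genes called in each direction with the largest change and a mean log2 CPM of at least 1, up to 4 called members per list and direction by p, 22 panel genes and the most expressed member of each cell type list. A further 46 genes, among them Cybb, Itgal, Mmp9, Vwf, Icam1, Egr1, Egr2, Il1rn, Lyz2 and Tlr2, were named after their values were seen. So were up to 10 genes called in bulb-poor libraries with the largest fall there. The members and the 38 lists (721 distinct genes, 1 entry not matched) were chosen with earlier results of these data known. Sequences are from RefSeq (GRCm38.p6).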

Additional observations from a re-analysis of the deposited data

Results flagged for a closer look

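In 322 groups of 4 or 5 values, 16 held a library farther from the rest than Dixon's 95% limit allows, and chance alone flags about 1 group in 20. Of the 16, 6 were in co-treated replicate 5, 5 in control replicate 2, 2 in co-treated replicate 2, 2 in control replicate 4 and 1 in co-treated replicate 4. All values are CPM unless said otherwise.

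Co-treated replicate 5 held C3 at 7.07 against 4.73 to 5.41 in the other co-treated libraries, Spred2 at 128 against 114 to 117 and Per2 at 52.7 against 42.5 to 44.2. It was the lowest co-treated library for H2-T23 at 20 against 26.9 to 28.4, Gzma at 1.38 against 2.43 to 2.70, and the mitochondrially encoded share of counts at 5.5% against 9.98% to 11.8%.

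Control replicate 2, a bulb-poor library, was the highest control for Csf1r at 162 against 104 to 111, Tmem119 at 44.4 against 28.2 to 30.4, Maf at 40.3 against 26.3 to 27.6 and Sox18 at 10.1 against 6.98 to 7.50. It was the lowest for Slc17a6, a vesicular glutamate transporter, at 10.6 against 22.6 to 23.2. Control replicate 4 was the lowest control for Ftl1 at 100 against 116 to 119 and Nfe2l2 at 16.3 against 24.6 to 25.8.

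Co-treated replicate 2 was the highest co-treated library for Lcn2 at 8.58 against 6.19 to 6.54 and for Foxp1 at 77.6 against 64.4 to 67.8. Co-treated replicate 4 was the highest for Myo1f at 17.2 against 14.1 to 14.95.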

How the results depend on the processing

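Against 1965 genes called in co-treated against control libraries (1133 higher, 832 lower), bulb-poor libraries gave 615 (475 and 140), the bulb index 1084 (309 lower), limma-voom 4872 (2750 and 2122), a minimum fold of 1.5 251 (246 and 5), no expression filter 1244 (430 lower), DESeq2 1361 lower and the 2 groups alone 753 higher. Leaving out 1 library gave 876 to 2907 genes, 614 to 1544 higher and 209 to 1363 lower, lowest without control replicates 5 and 1. Between co-treated and LPS libraries the count of 350 became 952 by DESeq2, 98 with the bulb index, 35 in bulb-poor libraries, 2648 by limma-voom, 24 with the minimum fold, 549 with offsets for length and GC, 723 with the 2 groups alone and 141 to 590 without 1 library. LPS against control, 1938, became 848 in bulb-poor libraries, 4528 by limma-voom, 553 with the minimum fold, 1114 with the 2 groups alone and 1308 to 2478 without 1 library. Of the genes named by rule 135 were called, 88 in bulb-poor libraries and 57 with the minimum fold, and 92 to 137 without 1 library. Of the list entries 214 were called, 338 by limma-voom and 81 with the minimum fold, and 145 to 258 without 1 library. Changes of sign were to 0.28 for Doc2g, 0.081 for Cdhr1, 0.02 for Th and 0.0127 for Nmb with the bulb index, and to 0.0194 for Nmb in bulb-poor libraries. Doc2g and Cdhr1 are themselves part of the bulb index, so the loss of their change in that fit was largely set in advance. The minimum fold asks for more than a difference from 0, and the bulb-poor fit holds fewer libraries; the cause of the other moves was not tested.

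The replicate block called 954 genes (686 higher, 268 lower) against control and 145 against LPS. Deviations of the 4 same-numbered pairs of control and co-treated libraries correlated at -0.26 to 0.06 and those of 16 other pairs at -0.14 to 0.16. Control libraries also differed from each other in bulb content, which co-treated libraries did not. With 4 pairs this check cannot tell whether the replicate numbers pair the libraries. Control and LPS each hold 2 bulb-poor libraries, so calls in that setting are limited by their number, and genes with few counts by depth.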
